A study of Mus musculus with 8 samples.

Results

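Aminoacyl-tRNA synthetases are the enzymes that join each amino acid to its tRNA, and 35 of the genes that encode them were followed here in mouse peripheral retina at postnatal day 12. They were taken by symbol, as the enzymes of this family, and not by a threshold on measured values: 20 encode cytosolic enzymes or their subunits, and 15, with symbols ending in 2, encode mitochondrial enzymes. All 35 were among the 23284 genes of the deposited count tables, and all 35 were among the 15106 genes with enough reads to be tested. The smallest count of any of them in a library was 92 reads, for Mars2.

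The data are 8 RNA-seq libraries, 4 from Rb-null retina and 4 from Rb-null retina that also carries TET-MYCN. By the labels, the Rb-null mice carried Pax6alpha-enhancer-Cre with Rblox/lox, so that the retinoblastoma gene is deleted where this enhancer drives Cre recombinase, and the enhancer is known for its activity in progenitors of the peripheral retina. The second group has the genotype Rb null, TET-MYCN, and the series' design text gives it Pax6alpha-enhancer-Cre, Rosa26LSL-RTTA (a tetracycline-responsive transactivator that Cre switches on) and TRE-MYCN (the MYCN proto-oncogene under the promoter that this transactivator binds). That text does not repeat the floxed Rb allele for this group, and no inducing drug is named in the sources used here. By the labels, the comparison asks what MYCN overexpression adds to loss of Rb, which the genotype labels give for both groups. No group labelled as keeping Rb is compared here, and no sorting of cell types is named, so that cells in which Cre did not act may be present. The groups are called Rb-null and TET-MYCN below, libraries are named by group and number, and the 4 values of a group are always listed from library 1 to library 4.

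Charged tRNAs are what the ribosome reads, so synthetases set the supply of amino acids in a usable form for protein synthesis. Vertebrate cells use one set of enzymes in the cytosol, several of them held together in a multi-synthetase complex, and a separate, nuclear-encoded set inside mitochondria, where the products are a few subunits of the respiratory chain. Gars and Kars each serve both compartments from a single gene. MYC family proteins are known to raise the expression of many genes of protein synthesis, and the transcription factor ATF4, which is made when amino acids are short, is known to activate many cytosolic synthetase genes.

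Libraries held 14872131 to 22873979 reads assigned to genes, and the synthetase genes took 0.315% to 0.552% of them. Neither gene that the labels concern set the groups apart. Levels are given as CPM, the reads of a gene scaled to the same total in every library. Mycn was at 246, 339, 108 and 232 CPM in Rb-null and at 201, 219, 272 and 276 CPM in TET-MYCN (log2 fold change 0.07 ± 0.28, standard error, edgeR adjusted p = 0.934). Whether the mouse gene's count includes reads of the transgene is not given in the sources used here. Rb1, counted over the whole gene, was at 161 ± 22 CPM in Rb-null and 154 ± 24 CPM in TET-MYCN (SD, n = 4), with a log2 fold change of -0.06 ± 0.14. Counts of these genes therefore could not check the labels. Markers of some cell types had different averages in the 2 groups. No gene of the rod, Müller glia, proliferating cell and lens lists had an edgeR adjusted p under 0.05. The summed levels of these 4 lists overlapped for all but Müller glia. Rod genes (10) were all lower on average in TET-MYCN, with a summed level of 4006 to 18411 CPM in Rb-null and 2777 to 6821 CPM in TET-MYCN. Müller glia genes were lower on average in 6 of 7 cases, with sums of 2657 to 3939 against 1571 to 2425 CPM. All 12 genes of proliferating cells were higher on average, with sums of 1931 to 3630 against 3090 to 3809 CPM. Lens genes (10) summed to 21.5 to 525 against 9.09 to 51.0 CPM. No gene of these 4 lists was at 0 in all libraries. Some lists of other cell types differed as well. All 8 bipolar and all 7 cone genes were lower on average in TET-MYCN, with summed levels that overlapped. Of 8 retinal progenitor genes, 7 were higher on average. The mean log2 CPM of the 8 was 4.11 to 4.65 in Rb-null and 4.95 to 5.63 in TET-MYCN, while their summed levels overlapped. Among 8 microglia and macrophage genes, 1 was higher and 0 were lower at an edgeR adjusted p under 0.05. In tissue such as this, fewer cells of a type and less RNA per cell cannot be told apart.

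Promoters of 4 synthetase genes are printed here to show where the letters that MYC proteins and ATF4 are known to bind occur. The E-box CACGTG and the ATF4 element TGATGNAAN (N is any base) were searched on both strands in RefSeq promoter windows (GRCm38.p6) that run from 250 bases before the transcript start to 50 after it. The 4 genes are those with a match and the smallest unadjusted p in the comparison of groups. Each line runs from 120 bases before the start to 30 after it, 5′ to 3′ on the gene's strand, with matches in capitals. A match to the ATF4 element on the opposite strand appears as its reverse complement.
Gars (chr6:55037881-55038030, plus strand): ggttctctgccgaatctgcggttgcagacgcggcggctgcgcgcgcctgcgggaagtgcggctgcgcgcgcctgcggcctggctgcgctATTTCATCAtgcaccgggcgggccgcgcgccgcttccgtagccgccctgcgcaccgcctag
Iars (chr13:49682010-49682159, plus strand): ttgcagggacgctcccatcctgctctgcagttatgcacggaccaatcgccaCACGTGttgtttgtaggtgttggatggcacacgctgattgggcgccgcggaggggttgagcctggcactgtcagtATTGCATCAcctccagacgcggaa
Ears2 (chr7:122067057-122067206, minus strand): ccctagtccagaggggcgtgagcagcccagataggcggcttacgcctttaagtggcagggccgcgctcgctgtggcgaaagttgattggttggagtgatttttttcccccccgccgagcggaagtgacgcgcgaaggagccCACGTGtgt
Yars (chr4:129189783-129189932, plus strand): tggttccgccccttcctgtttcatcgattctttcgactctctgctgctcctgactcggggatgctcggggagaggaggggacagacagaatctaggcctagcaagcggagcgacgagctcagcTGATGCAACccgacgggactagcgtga

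Iars, the isoleucyl-tRNA synthetase, was the only one of these 4 with both motifs: its E-box began 69 bases before the start and its ATF4 element 7 bases after it. The Gars match began 31 bases before the start, the Yars match at base 4 and the Ears2 E-box at base 22 of the transcript. Windows were given for 26 of the 35 genes, 27 windows in all, since 1 mitochondrial gene had more than 1. An E-box stood in 5 of these 27 windows (18.5%; Aars, Farsb, Iars, Tars and Ears2), against 7.15% of all 32851 windows of the table. The ATF4 element also stood in 5 (18.5%; Aars, Gars, Iars, Tars and Yars), against 3.95% of all windows. By compartment, the ATF4 element was in 5 of 13 cytosolic windows and in 0 of 14 mitochondrial ones, and the E-box in 4 of 13 and 1 of 14. In the 250 bases before the start alone, each motif was found in 3 of the 27 windows (11.1%), against 6.02% of all windows for the E-box and 3.44% for the ATF4 element. A match describes letters in a window and shows no binding.

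Levels were compared between genes per kb of the longest annotated transcript, in Rb-null libraries. RNA of the cytosolic enzymes was the more abundant. The median over the 20 cytosolic genes was 3.55 ± 0.12 times (SD, n = 4 libraries) that over the 15 mitochondrial genes. In TET-MYCN libraries the same ratio was 3.84 ± 0.07, and the 4 values of each group did not overlap (3.38 to 3.68 against 3.74 to 3.89). A ratio of medians rests on the genes of middle rank in each set. The mean log2 CPM of cytosolic minus that of all 15 mitochondrial genes overlapped between the groups. It was 1.78 to 1.90 in Rb-null and 1.89 to 1.94 in TET-MYCN. Kars (lysine), Nars (asparagine) and Gars (glycine) led the cytosolic enzymes at 53.9 ± 2.0, 52.0 ± 3.4 and 49.2 ± 1.0 CPM per kb (SD, n = 4). Next came Farsa at 45.4 ± 4.1 and Sars at 45.3 ± 3.4 CPM per kb, and each neighbouring pair from Kars to Sars differed by less than the larger of their SDs. Tars, for threonine, was lowest of the cytosolic set at 16.8 ± 0.6 CPM per kb, below the mitochondrial Rars2 at 17.5 ± 1.3 and Hars2 at 17.1 ± 0.7, which again differ by less than their SD. At the other end stood Ears2, Nars2, Wars2 and Mars2, at 3.35, 2.85, 2.55 and 0.674 CPM per kb. Levels per kb and the ratio between compartments depend on the transcript length chosen. The ratio was 4.77 with the shortest annotated transcript.

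**Figure D1:**
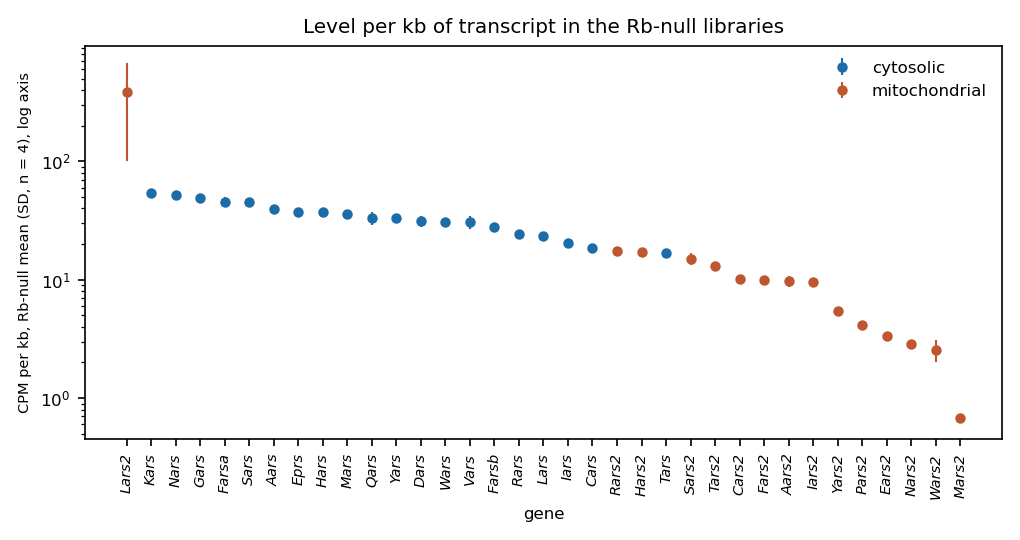
Level of each synthetase gene in the Rb-null libraries, as CPM per kb of the longest annotated transcript on a log axis; points are means of 4 libraries and bars are SD, blue for cytosolic and orange for mitochondrial enzymes. Apart from Lars2 at 386 CPM per kb, all mitochondrial genes stand at 17.5 or lower, and 19 of the 20 cytosolic genes stand above that level.

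Pairs of genes for 1 amino acid followed the same order with a wide range. In 11 of 12 pairs the cytosolic gene had the higher level per kb in Rb-null libraries, from 1.28 times for Tars over Tars2 to 53.4 times for Mars over Mars2. The last value depends on the lengths used, 2.96 kb for Mars and 11.3 kb for Mars2. Before division by length, their Rb-null means were 107 and 7.62 CPM. The pair for leucine was the exception, with Lars at 0.0606 times the level of Lars2.

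No synthetase gene passed the threshold between the groups. Of 15106 genes tested with edgeR's quasi-likelihood test, 9 had an adjusted p under 0.05 (0.0596%), and 0 of the 35 were among them. At an unadjusted p under 0.05, 1 of the 35 was higher in TET-MYCN (Dars), where 8.06% of all genes were, and 0 were lower, where 7.72% of all genes were. Fold changes were small and mostly positive: 15 of 20 cytosolic and 11 of 15 mitochondrial genes had a positive log2 fold change, as did 52.2% of all genes tested. The median log2 fold change was 0.106 over the cytosolic genes (a 1.08-fold difference), 0.101 over the mitochondrial genes and 0.012 over all genes tested. DESeq2 called 0 of the 35 as well, although it called 530 genes in all (3.51%). DESeq2 and limma-voom each gave 1 of the 35 an unadjusted p under 0.05, and limma-voom called none of the 15106 genes.

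The intervals say how large a change these libraries would leave room for. For 34 of the 35 genes the 95% interval of the log2 fold change lay inside ± 1, that is, a 2-fold difference in either direction fell outside it. The exception was Lars2, with an interval of -1.51 to 0.68. Among the cytosolic genes the bounds ran from -0.32 (Qars) to 0.68 (Vars), and among the mitochondrial genes without Lars2 from -0.41 (Fars2) to 0.90 (Ears2). The counts rest on single libraries: without TET-MYCN 3, 230 genes passed the threshold over the whole table, without TET-MYCN 2, 132, without Rb-null 1, 1, and without any other single library, 0. In each of these fits 0 of the 35 synthetase genes passed. At an unadjusted p under 0.05 the number of the 35 that were higher was 6 without TET-MYCN 3 (13.1% of all genes), 4 without TET-MYCN 2 (8.63% of all genes) and 0 without TET-MYCN 1 or without Rb-null 2, 3 or 4 (5.77%, 8.94%, 5.22% and 5.56% of all genes). Without TET-MYCN 4 the mitochondrial median was 0.063.

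**Figure D2:**
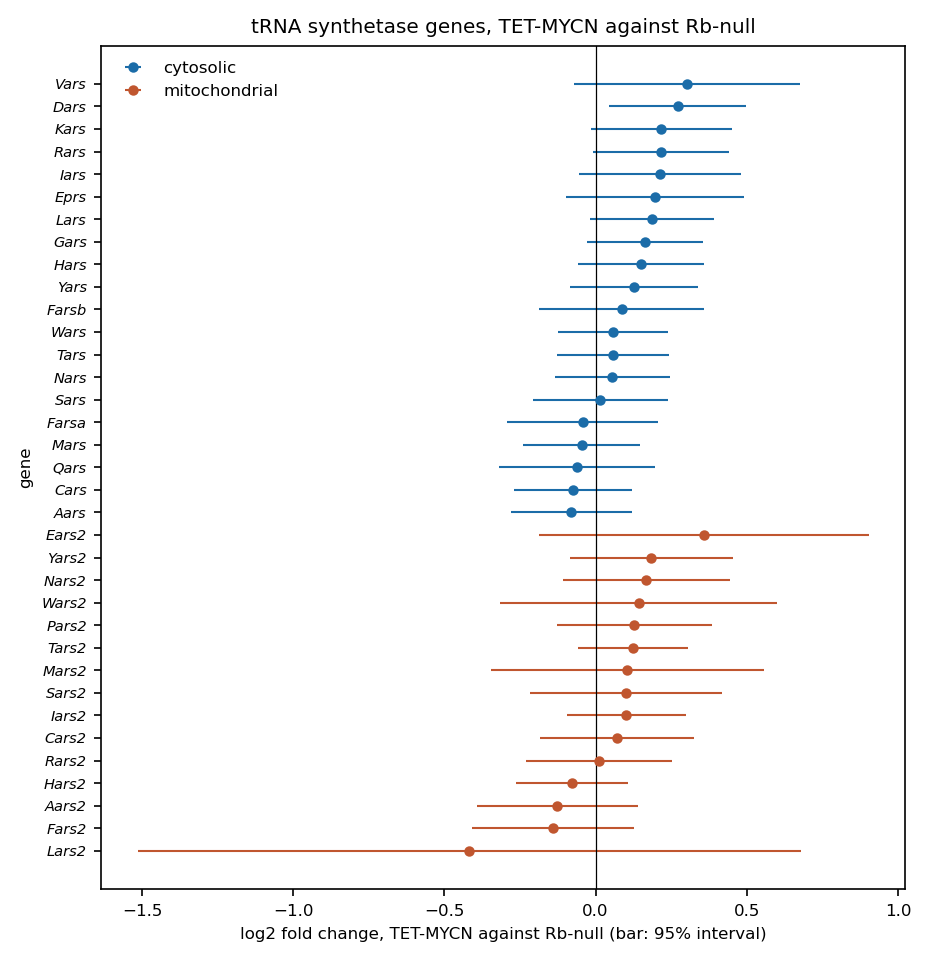
Log2 fold change of each synthetase gene between 4 TET-MYCN and 4 Rb-null libraries, with its 95% interval as a bar; blue, cytosolic, and orange, mitochondrial. The interval of Dars alone lies clear of 0 (0.05 to 0.50), 26 of 35 points lie to the right of 0, and Lars2 has by far the longest bar.

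Among the cytosolic enzymes, the multi-synthetase complex held the 4 genes with the smallest p-values. Its 8 enzymes had a median log2 fold change of 0.204, with 6 positive, against 0.106 for all 20 cytosolic genes, these 8 included. Their summed level overlapped between the groups, at 789 to 829 CPM in Rb-null and 822 to 976 CPM in TET-MYCN. Dars, which charges tRNA with aspartate, was at 77.9, 66.2, 63.1 and 64.3 CPM in Rb-null and at 88.4, 83.0, 82.9 and 73.7 CPM in TET-MYCN. Rb-null 1 exceeded TET-MYCN 4, so the groups overlapped through that pair. The log2 fold change was 0.27 ± 0.10 (unadjusted p = 0.0235, edgeR adjusted p = 0.252).

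Lars, the leucyl enzyme, which also senses leucine for the growth regulator mTORC1, was the only cytosolic gene whose groups did not overlap. It stood at 94.9, 95.6, 87.2 and 95.2 CPM in Rb-null and at 116, 101, 96.5 and 110 CPM in TET-MYCN. The gap between the groups was narrow, from 95.6 CPM in Rb-null 2 to 96.5 CPM in TET-MYCN 3, and the log2 fold change was 0.19 ± 0.09 (edgeR adjusted p = 0.357). Over all genes tested, 4.36% had groups apart in this direction and 3.29% in the other. Among the 35 synthetase genes there were 2 in this direction, Lars and Tars2, and 0 in the other.

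Rars, for arginine, was at 54.6, 54.2, 47.8 and 47.7 CPM in Rb-null and at 59.4, 52.8, 65.6 and 59.7 CPM in TET-MYCN. TET-MYCN 2 lay inside the Rb-null range and the other TET-MYCN libraries above it (log2 fold change 0.22 ± 0.10, edgeR adjusted p = 0.327). Kars, the lysyl enzyme of both compartments, showed the same layout, at 116, 122, 113 and 120 CPM in Rb-null and at 135, 115, 144 and 154 CPM in TET-MYCN. Its log2 fold change was 0.22 ± 0.10 (edgeR adjusted p = 0.345).

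Eprs encodes one protein with both the glutamyl and the prolyl enzyme. Its levels were 195, 184, 185 and 171 CPM in Rb-null and 231, 184, 174 and 253 CPM in TET-MYCN. The TET-MYCN libraries were split, with numbers 1 and 4 above every Rb-null library and numbers 2 and 3 within the Rb-null range (log2 fold change 0.20 ± 0.13, edgeR adjusted p = 0.496). The remaining enzymes of the complex were Iars, Mars and Qars, with log2 fold changes of 0.21, -0.05 and -0.06. Mars, for methionine, and Qars, for glutamine, were thus the 2 of 8 with a negative value. The non-enzyme scaffolds that hold the complex together, Aimp1, Aimp2 and Eef1e1, had log2 fold changes of 0.23 ± 0.11, 0.40 ± 0.13 and 0.13 ± 0.14, all positive, with edgeR adjusted p of 0.337, 0.220 and 0.698.

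Outside the complex, Gars had the smallest p of the cytosolic genes. Its levels were 115, 119, 115 and 119 CPM in Rb-null and 137, 118, 136 and 133 CPM in TET-MYCN. Rb-null libraries were close together, and 3 of 4 TET-MYCN libraries stood above all of them (log2 fold change 0.16 ± 0.09, edgeR adjusted p = 0.385).

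The subunits of the cytosolic phenylalanyl enzyme, Farsa (catalytic) and Farsb (tRNA-binding), work together as a tetramer. TET-MYCN 3 was the highest library for both. Farsa was at 82.7, 72.5, 87.6 and 89.2 CPM in Rb-null and at 75.2, 70.5, 90.7 and 85.8 CPM in TET-MYCN (log2 fold change -0.04 ± 0.11, edgeR adjusted p = 0.892). Farsb was at 56.8, 55.5, 57.5 and 58.1 CPM in Rb-null and at 59.5, 55.1, 75.7 and 51.6 CPM in TET-MYCN (0.09 ± 0.12, edgeR adjusted p = 0.788). For Farsb, TET-MYCN 1 and 3 were above and TET-MYCN 2 and 4 below every Rb-null library. Without TET-MYCN 3 its log2 fold change was -0.04, so the direction of Farsb rested on that library.

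Vars, for valine, had the largest cytosolic log2 fold change, 0.30 ± 0.17 (edgeR adjusted p = 0.404). It was picked out after its values were seen, as were the other genes of this paragraph. Its CPM was 136, 140, 105 and 123 in Rb-null and 173, 136, 116 and 196 in TET-MYCN. As with Eprs, only TET-MYCN 1 and 4 were above the Rb-null range. Iars shared that feature in part, with TET-MYCN 1, 2 and 4 at 116, 107 and 116 CPM above every Rb-null library (86.7 to 93.3 CPM) and TET-MYCN 3 at 81.4 CPM below them. The 5 cytosolic genes with a negative log2 fold change were Aars, Cars, Mars, Qars and Farsa, from -0.04 to -0.08.

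**Figure D3:**
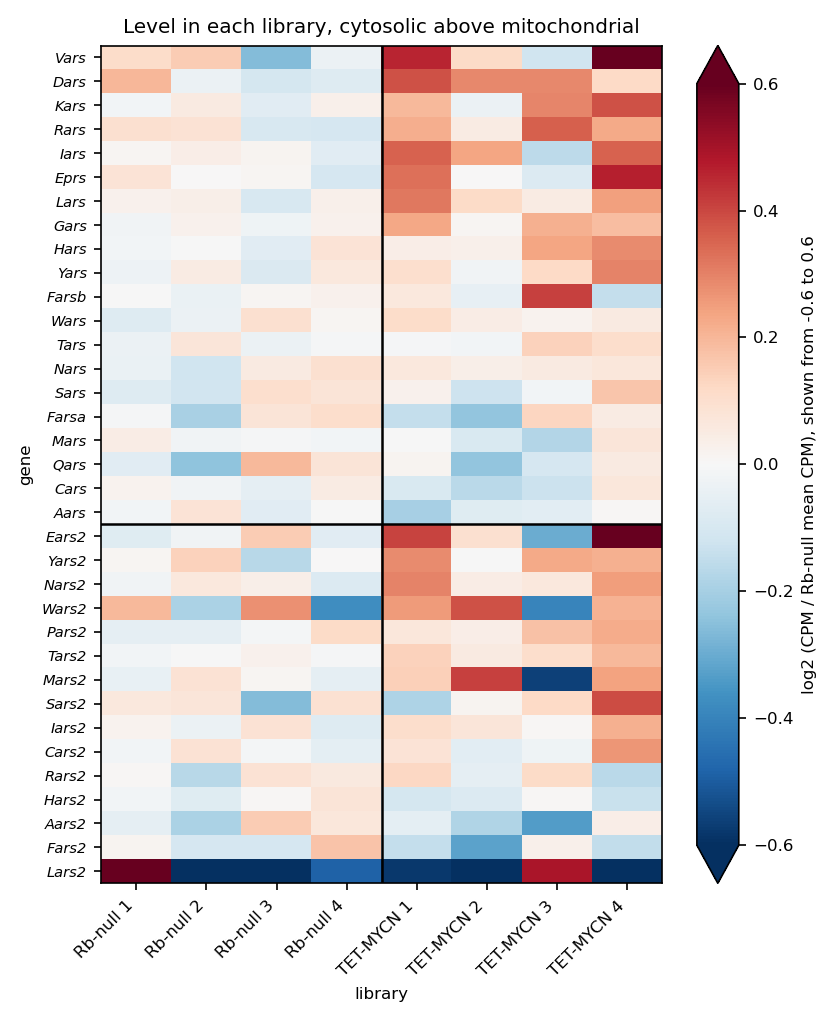
Level of each synthetase gene (rows, cytosolic above the line, mitochondrial below) in each of 8 libraries (columns), as log2 of CPM over the mean CPM of the Rb-null libraries, with colours ending at -0.6 and 0.6. Red cells gather in TET-MYCN 1 and 4, most rows of TET-MYCN 2 are pale, and Lars2 in the last row has its own pattern.

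The map of levels by library shows that the TET-MYCN libraries did not act as one. TET-MYCN 4 was the highest of 8 libraries for 14 of the 35 genes and TET-MYCN 1 for 8, while TET-MYCN 2 was highest for 2 and lowest for 6. Of the Rb-null libraries, number 3 was lowest for 9 genes. The mean log2 CPM of the 20 cytosolic genes was 6.61, 6.59, 6.59 and 6.62 in Rb-null and 6.73, 6.60, 6.68 and 6.79 in TET-MYCN. TET-MYCN 2 thus lay within the Rb-null range, and the means of the other TET-MYCN libraries above it. In TET-MYCN 4, 19 of 20 cytosolic genes were above their Rb-null mean, and in TET-MYCN 2, 10 of 20 were. TET-MYCN 4 also had the lowest summed rod level of the 8 libraries (2777 CPM) and the highest summed level of proliferating cell genes (3809 CPM), and the part of either in the synthetase levels was not tested.

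The cytosolic genes were also split by structure or by reported regulation, and in each list the summed levels of the groups overlapped. Class I enzymes (9 genes) had a median log2 fold change of 0.127 with 6 positive, and class II enzymes (10 genes) had 0.072 with 8 positive. Eprs was placed in neither class. Over 13 genes reported to respond to ATF4 the median was 0.057 with 10 positive, and over the other 7 it was 0.151 with 5 positive.

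The mitochondrial enzymes were counted at far fewer reads, from 5.17 to 60.2 CPM in any library apart from Lars2, and none had an unadjusted p under 0.05. Yars2, for tyrosine, had the smallest. It was at 15.3, 16.7, 13.6 and 15.2 CPM in Rb-null and at 18.5, 15.2, 17.8 and 17.6 CPM in TET-MYCN. All but TET-MYCN 2 were above the Rb-null range (log2 fold change 0.18 ± 0.12, edgeR adjusted p = 0.486).

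Tars2, for threonine, was the mitochondrial gene with groups apart. Its levels were 41.7, 42.1, 42.9 and 42.0 CPM in Rb-null and 46.3, 43.8, 45.3 and 48.2 CPM in TET-MYCN. The separation was a small one, from 42.9 CPM in Rb-null 3 to 43.8 CPM in TET-MYCN 2, in a gene whose Rb-null libraries had an SD of only 0.494 CPM (log2 fold change 0.12 ± 0.08, edgeR adjusted p = 0.492).

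Ears2 charges mitochondrial tRNA with glutamate, and it had the largest positive log2 fold change of the 35, 0.36 ± 0.24 (edgeR adjusted p = 0.506). It was at 6.52, 6.74, 7.60 and 6.53 CPM in Rb-null and at 9.08, 7.31, 5.56 and 13.1 CPM in TET-MYCN. The TET-MYCN libraries spanned more than 2-fold, with TET-MYCN 3 below every Rb-null library, so the size of the value came with a wide error.

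Nars2, for asparagine, was at 10.6, 11.2, 11.0 and 10.2 CPM in Rb-null and at 13.2, 11.1, 11.2 and 12.8 CPM in TET-MYCN (log2 fold change 0.17 ± 0.12, edgeR adjusted p = 0.542). Fars2, the single-chain mitochondrial phenylalanyl enzyme, went the other way, at 21.3, 19.7, 19.7 and 23.8 CPM in Rb-null and at 19.1, 16.9, 21.5 and 19.0 CPM in TET-MYCN (-0.14 ± 0.12, edgeR adjusted p = 0.606). In both genes the groups overlapped. The other mitochondrial genes with a negative value were Aars2 (-0.13), Hars2 (-0.08) and Lars2, and the rest lay between 0.01 (Rars2) and 0.14 (Wars2).

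Lars2, the mitochondrial leucyl enzyme, stood apart from all the others in level and in spread. Its CPM was 3163, 965, 816 and 1074 in Rb-null and 1006, 676, 2114 and 710 in TET-MYCN. Rb-null 1 and TET-MYCN 3 were the high libraries, 1 in each group, and the highest was 4.68 times the lowest. Lars2 alone gave 20.1% to 56.2% of the reads of all 35 genes and 65.0% to 90.0% of those of the mitochondrial set. The log2 fold change was -0.42 ± 0.49 (edgeR adjusted p = 0.732), and without Rb-null 1 it was 0.24.

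Rn45s, the gene symbol of the precursor of the ribosomal RNAs, moved with Lars2. Rn45s was at 17590, 3625, 4249 and 4985 CPM in Rb-null and at 3928, 3717, 9902 and 3463 CPM in TET-MYCN, again highest in Rb-null 1 and TET-MYCN 3. For every 100 reads of Rn45s there were 17.98 to 26.6 reads of Lars2, a range of 1.48-fold, against 4.68-fold for Lars2 and 5.08-fold for Rn45s. Reads aligned to several places were also most frequent in these libraries, at 11.7% and 12.8% against 9.05% to 10.1% in the other 6. The part of ribosomal RNA in the Lars2 count was not tested. Without Lars2, an omission chosen after its values were seen, the mitochondrial median was 0.103, and the summed level of the other 14 genes was 339 to 354 CPM in Rb-null and 348 to 382 CPM in TET-MYCN.

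**Figure D4:**
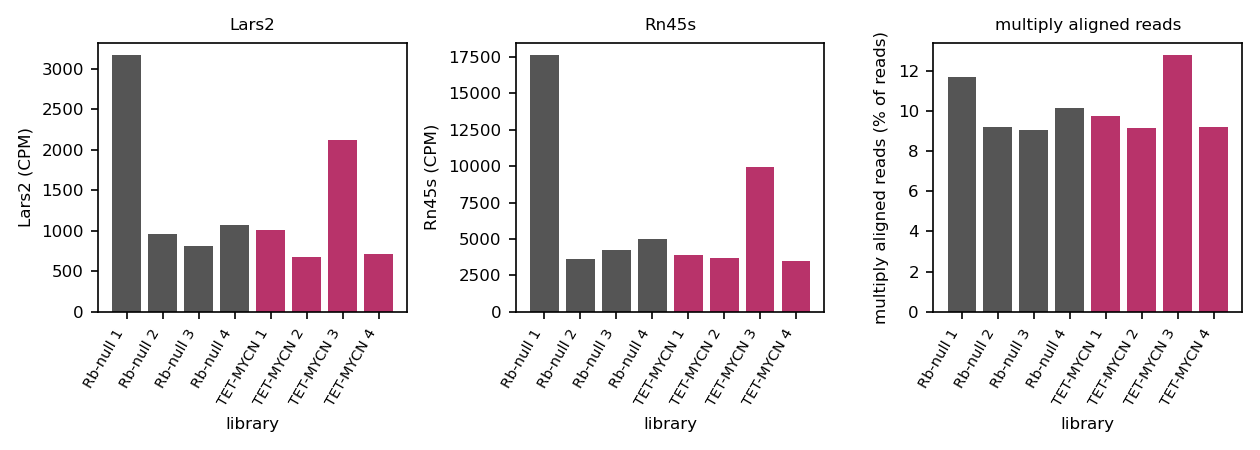
Lars2 (CPM), Rn45s (CPM) and reads aligned to several places (% of reads) in each of 8 libraries, grey for Rb-null and red for TET-MYCN, all axes from 0. Rb-null 1 and TET-MYCN 3 have the tallest bars in all 3 panels.

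Cytosolic and mitochondrial enzymes had median log2 fold changes that differed by 0.005. This value was 0.046 without Rb-null 4, 0.041 without TET-MYCN 2 and -0.016 without TET-MYCN 3, so its sign and size rested on single libraries. The ratio of median levels per kb, given above, was higher in every TET-MYCN library, but it rests on the genes of middle rank. Over the 12 pairs for 1 amino acid the cytosolic gene had the larger log2 fold change in 5. These 5 were Aars, Hars, Iars, Lars and Rars, with differences from their partner of 0.05 (Aars) to 0.60 (Lars). The mean log2 CPM of cytosolic minus that of mitochondrial genes without Lars2 was 2.27, 2.28, 2.22 and 2.29 in Rb-null and 2.29, 2.23, 2.39 and 2.25 in TET-MYCN. TET-MYCN 3 alone lay outside the Rb-null range. Hars and Hars2 lie head to head and share 195 annotated exonic bases on opposite strands, and whether counting used strand is not given in the sources used here. The same limit touches Farsb, Fars2, Iars2, Mars, Ears2 and Yars, and Aars shares 1326 bases with Exosc6 on its own strand.

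Genes that act beside the synthetases were read from lists in the same fit, and none of those listed here had an edgeR adjusted p under 0.05. Synthetase-related genes outside the 35 behaved alike in size: 8 of 10 had positive values, with a median of 0.063, and 0 had an unadjusted p under 0.05. Over all genes tested, 8.06% were higher and 7.72% lower at that level. Pstk, which modifies serine on the selenocysteine tRNA, and Vars2, a mitochondrial valyl enzyme, had log2 fold changes of 0.21 ± 0.15 and 0.21 ± 0.16 (edgeR adjusted p of 0.513 and 0.571).

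Cytosolic elongation factors, which carry charged tRNA to the ribosome and move it along, had larger values. Of 7 genes 6 were positive, 5 at an unadjusted p under 0.05 and 4 with groups apart, with a median of 0.416. Over all genes tested, 52.2% were positive, 8.06% were higher at an unadjusted p under 0.05 and 4.36% had groups apart in this direction. Eef1a1, the factor that delivers charged tRNA, was at 2815, 2864, 2483 and 2849 CPM in Rb-null and at 4332, 3239, 3636 and 5200 CPM in TET-MYCN (log2 fold change 0.58 ± 0.16, edgeR adjusted p = 0.181). TET-MYCN 4 and 1 were again the highest and TET-MYCN 2 the lowest of its group. Eef1b2, the nucleotide exchange factor of Eef1a1, and Eif5a, which helps ribosomes through difficult stretches, had 0.78 ± 0.17 and 0.42 ± 0.12 (edgeR adjusted p of 0.155 and 0.182). Eef1a1, Eef1b2 and Eif5a have processed pseudogenes in the mouse genome, so their counts depend on how reads with several places were handled.

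Of 25 genes of tRNA maturation and modification, 22 were positive, against 52.2% of all genes tested, with a median of 0.134. At an unadjusted p under 0.05, 5 of the 25 were higher, against 8.06% of all genes. The smallest p-values were those of Pus1 (a pseudouridine synthase, 0.54 ± 0.18), Nsun2 (a tRNA cytosine methyltransferase, 0.37 ± 0.13) and Pop1 (a subunit of the enzyme that trims tRNA ends, 0.40 ± 0.16), with edgeR adjusted p of 0.222, 0.234 and 0.268. RNA polymerase III, which transcribes tRNA genes, had 9 of 14 positive and a median of 0.053. Brf1, a part of its initiation factor, was the 1 gene of 14 with an unadjusted p under 0.05, at 115, 118, 106 and 105 CPM in Rb-null and 90.2, 84.2, 84.8 and 96.2 CPM in TET-MYCN. Its groups did not overlap (-0.32 ± 0.09, edgeR adjusted p = 0.173). Over all genes tested, 7.72% were lower at an unadjusted p under 0.05 and 3.29% had groups apart in this direction. Polr3gl, a subunit of the polymerase, had -0.16 ± 0.11 (edgeR adjusted p = 0.503).

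Mitochondrial translation factors were near the synthetases of their compartment, with 6 of 10 positive and a median of 0.075. Mrrf, which recycles mitochondrial ribosomes, Gfm2, which acts with it, and Tufm, the elongation factor that carries charged tRNA, had 0.26 ± 0.14, -0.15 ± 0.09 and 0.16 ± 0.10 (edgeR adjusted p of 0.404, 0.433 and 0.485).

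Known targets and members of the ATF4 response outside the synthetases had 15 of 22 positive values and a median of 0.206. Of the 22, 5 were higher at an unadjusted p under 0.05. Over all genes tested, 52.2% were positive and 8.06% were higher at that level. Slc7a11, the cystine transporter, was at 1.73, 2.73, 2.75 and 2.69 CPM in Rb-null and at 8.53, 8.87, 4.89 and 10.4 CPM in TET-MYCN. Every TET-MYCN library was above every Rb-null library, and the log2 fold change was 1.73 ± 0.26 (edgeR adjusted p = 0.0632). Phgdh, the first enzyme of serine synthesis, had 0.999 ± 0.229 (edgeR adjusted p = 0.157), and Nupr1, a stress-induced nuclear protein, 0.82 ± 0.32 (edgeR adjusted p = 0.266). The other 7 had negative values, down to -0.38 ± 0.19 for Vldlr, a lipoprotein receptor, and Atf4 itself had -0.18 ± 0.18 (both named after their values were seen; edgeR adjusted p of 0.366 and 0.670). Over the 13 cytosolic synthetase genes reported to respond to ATF4, set beside these, the largest log2 fold change was 0.30 (Vars).

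**Figure D5:**
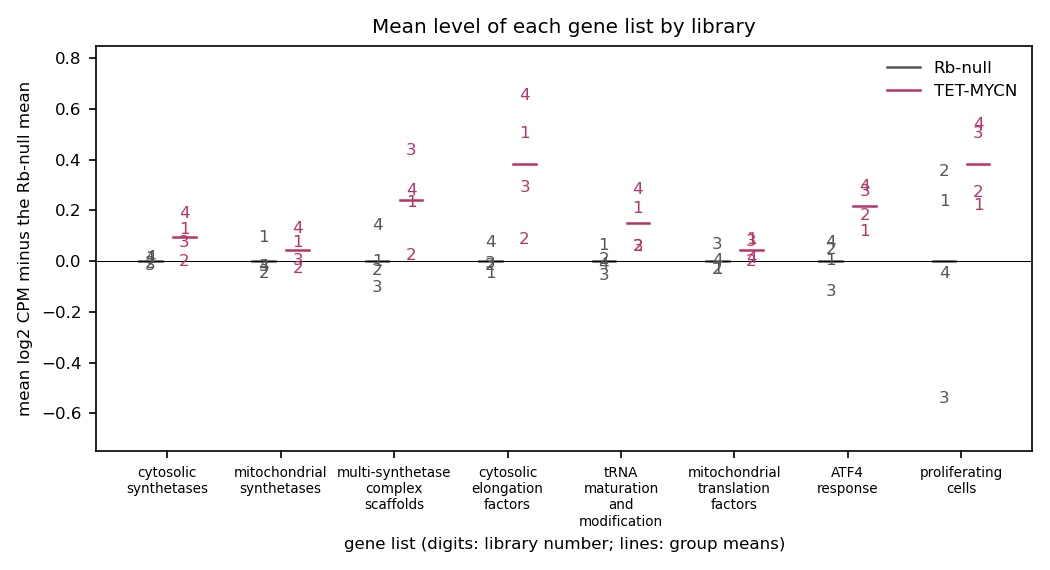
Mean log2 CPM of 8 gene lists in each library, minus the mean of the Rb-null libraries; digits are library numbers, grey for Rb-null and red for TET-MYCN, and short lines are group means. Cytosolic synthetases spread from 0 to about 0.2 in TET-MYCN, with library 4 highest and 2 lowest, and the elongation factors show the same order over a wider range.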

How the data were processed

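RNA from microdissected peripheral retina was oligo-dT selected and sequenced in 4 libraries a group. The authors deposited whole-number counts per gene symbol, not normalized. Per the submitters' processing notes, reads went through CASAVA (1.8.2), TopHat2 (2.0.8b) and HTSeq (0.5.4p3) on build mm9; no options or strand setting are named there. Reads outside genes, ambiguous or aligned to several places (28.3% to 31.7% of each file) were left out.

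Counts were scaled by TMM, filtered with filterByExpr and tested with edgeR's quasi-likelihood test (edgeR 4.0.16, R 4.3.3), with group as the only term and Benjamini-Hochberg adjustment over all 15106 genes; the threshold was 0.05. Positive log2 fold changes mean higher in TET-MYCN; ± is the standard error, or SD for levels. The script was tested on simulated data. The labels name no separate animals, so p-values measure the spread between libraries, which may be technical. Within each group, every pair of libraries differed by more than sampling noise.

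Levels per kb used transcript lengths of GENCODE M21 (GRCm38), and promoter windows came from RefSeq (GRCm38.p6). Windows were given for 26 of 35 genes. The genes, lists and motifs were chosen with earlier results of these data known. Full values are given for the 5 genes of each compartment with the smallest p, and for Gars, Kars, Eprs, Farsa and Farsb, and up to 3 genes of each other list; some items are not reported here. DESeq2 1.42.0 and limma-voom (limma 3.58.1), other scalings and filters, left-out libraries and a replicate block were alternatives.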

Additional observations from a re-analysis of the deposited data

Results flagged for a closer look

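In 3 of 74 groups of 4 libraries examined (each gene's CPM within a group), 1 library stood farther from the other 3 than Dixon's 95% critical value allows; chance gives about 1 in 20. Lars2 in Rb-null 1 was at 3163 CPM, against 816 to 1074 CPM in the other Rb-null libraries. Lars in Rb-null 3 was at 87.2 CPM, against 94.9 to 95.6 CPM. Sars2, the mitochondrial seryl enzyme, in Rb-null 3 was at 23.4 CPM, against 29.3 to 29.9 CPM.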

How the results depend on the processing

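In all 18 alternatives run, 0 of the 35 synthetase genes passed the threshold. The count over all genes was 17 without a filter on low counts, 530 with DESeq2, 0 with limma-voom, where 2262 genes had p under 0.05 before adjustment, 0 to 230 when 1 library was left out, 0 without Rb-null 2 and 3, and 41 without Rb-null 1 and TET-MYCN 3. With the replicate block it was 3. Same-numbered libraries deviated with correlations of -0.29 to -0.04, and differently numbered ones with -0.24 to 0.45. Whether equal numbers mark anything shared was not tested. The cytosolic median ranged from 0.067 (without Rb-null 1 and TET-MYCN 3) to 0.145, and the mitochondrial one from 0.063 to 0.112. Without Rb-null 1 and TET-MYCN 3 the difference of medians was -0.037. The ratio of levels per kb was 4.77 with the shortest and 3.42 with the mean transcript length. Of 630 recomputed single-gene values, 16 reversed, and the cause was not tested. With 1 library left out, the log2 fold change ran from -0.105 to 0.010 for Farsa, -0.041 to 0.155 for Farsb, -0.134 to 0.0090 for Qars, -0.037 to 0.054 for Sars, -0.917 to 0.243 for Lars2, -0.021 to 0.271 for Mars2, -0.041 to 0.065 for Rars2 and -0.010 to 0.179 for Sars2. Without Rb-null 1 and TET-MYCN 3 it was -0.054 for Farsb, -0.010 for Sars and -0.036 for Rars2, and without Rb-null 2 and 3 it was -0.023 for Rars2.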
